A study of Mus musculus with 8 samples.

Results

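Central carbon metabolism was followed through 36 genes in germinal centre B cells, the B cells that divide, mutate their antibody genes and compete for T cell help inside lymphoid follicles. The genes were taken from a list that covers sugar and lactate transport, glycolysis, the step from pyruvate into the mitochondrion, the tricarboxylic acid (TCA) cycle and the pentose phosphate pathway. Of the 36, 32 had a probe set annotated with their symbol alone, and 31 were bright enough to test, among 10547 tested genes of 18193 named ones. The genes without such a probe set were Gpi1, Gapdh, Eno1 and G6pdx, which were not analysed here; the probe sets annotated with Gapdh also carried the symbols of its pseudogenes. The remaining gene, Slc16a3, which encodes the lactate exporter MCT4, stayed near the floor of the arrays, with intensities of 10.4 to 12.9 in the light zone and 12.5 to 14.7 in the dark zone against a filter at 27.8.

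C57BL/6 mice received NP-KLH, a hapten on a carrier protein, in alum under the skin, and their lymph nodes were taken 12 days later. Cells positive for B220 and CD95 and negative for CD38 were sorted by CXCR4 and CD83 into a light zone and a dark zone fraction, and the RNA of each sorted sample went onto 1 Affymetrix mouse array, with 4 arrays for each zone. The labels call the samples biological replicates and do not say whether a light zone and a dark zone sample came from the same animals. The labels also word the gates in reverse of the usual definition, but Cd83 mRNA had a mean intensity of 7381 in arrays titled light zone and 1478 in those titled dark zone, and Cxcr4 mRNA 804 and 1571, so both followed the titles, which define the groups here. Both genes belong to the gate and are no findings.

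Cells take up glucose through GLUT transporters and split it by glycolysis into pyruvate, which is either reduced to lactate and exported or passed by the pyruvate dehydrogenase complex into the TCA cycle. The pentose phosphate pathway branches from the first steps of glycolysis and supplies NADPH and the ribose of nucleotides. Activated B cells raise glucose use, and germinal centre B cells are also known to burn fatty acids in their mitochondria, so glycolysis and mitochondrial oxidation are both studied in this tissue.

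The differences in this route split by step. Sugar and lactate transport and the upper part of glycolysis were higher in the light zone where they passed the test, and the mitochondrial and pentose phosphate enzymes that passed, with the exception of the kinase gene Pdk1, were higher in the dark zone. Values are intensities on a linear scale, and each difference subtracts the light zone mean of log2 intensities from that of the dark zone, with its moderated standard error (SE) from limma, a linear model fitted to all tested genes; a gene passed at a Benjamini-Hochberg adjusted p under 0.05 over all 10547. By that rule 8 of the 31 tested members favoured the light zone, 7 favoured the dark zone and 16 did not pass. Over the arrays as a whole, 24.8% of tested genes favoured the light zone and 19.1% the dark zone, 43.9% together, so the share of members that passed (48.4%) was close to that background. As the labels do not say whether samples came from separate animals, p-values measure the spread between these samples. The direction differed between steps, among members chosen with earlier results of these data known, and this split was not tested. Among the 15 tested genes of transport, glycolysis and lactate, 7 favoured the light zone and 1 the dark zone, with a median difference of -0.19. The lower glycolysis genes of this group had a median of 0.05, and the 1 dark zone gene was among them. Among the 16 of pyruvate dehydrogenase, TCA cycle and pentose phosphate, 1 favoured the light zone and 6 the dark zone, with a median of 0.11, whereas the median of all tested genes was -0.01. Most differences were small: 3 members passed with a difference of at least 0.5, against 13.4% of all tested genes. In sorted bulk samples, fewer cells expressing a gene and less RNA per cell cannot be told apart.

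**Figure D1:**
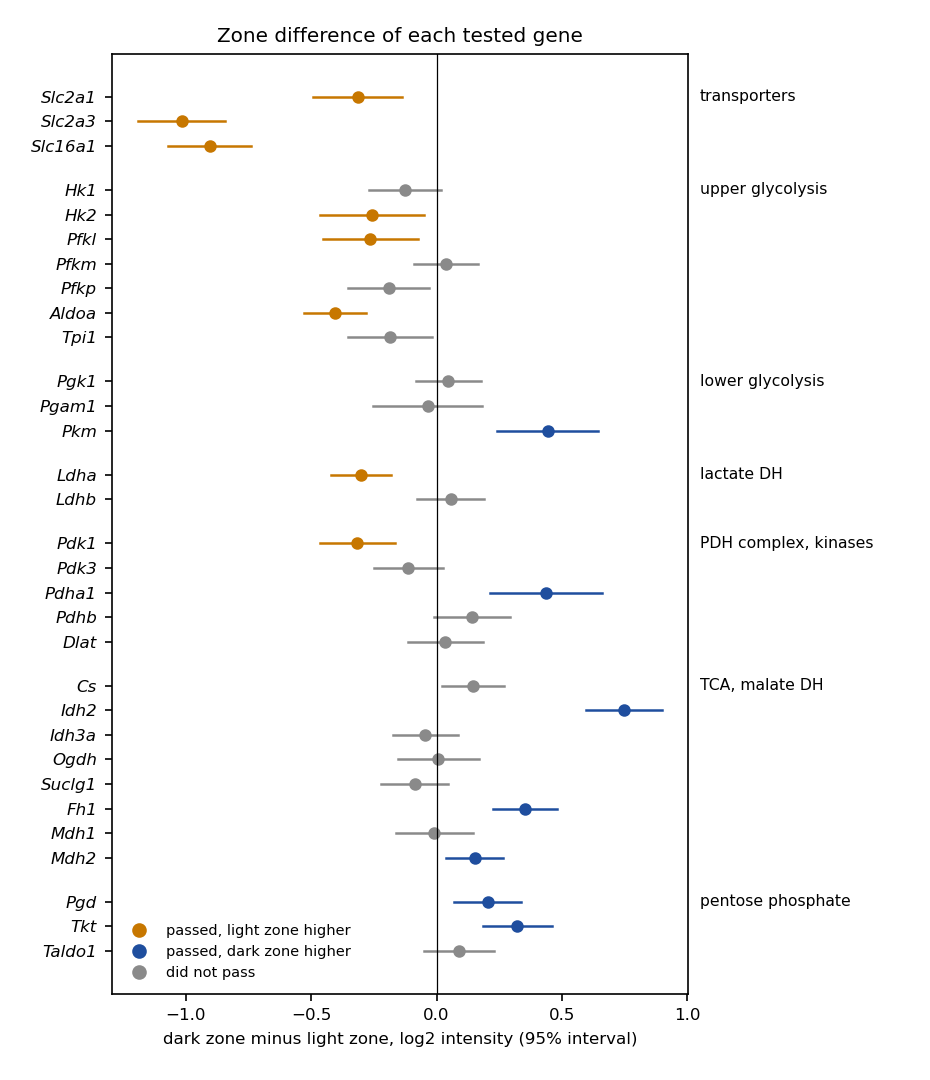
Difference of each of the 31 tested genes, dark zone minus light zone in log2 intensity, grouped by step of the pathway; points are differences of 4 against 4 arrays, lines are 95% intervals and colours show the limma call. Passing genes of transport and upper glycolysis lie to the left of 0 (light zone higher), and passing genes of the TCA cycle and pentose phosphate pathway lie to the right.

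The transporters carried the largest differences. Slc2a3 encodes GLUT3, a high-affinity glucose transporter. Its intensities were 417, 432, 401 and 383 in the 4 light zone arrays and 177, 213, 226 and 194 in the 4 dark zone arrays. Every light zone array was above every dark zone array, and the difference was -1.02 (SE 0.08, limma adjusted p = 1.0e-06), a 2.02-fold higher mean in the light zone. Slc16a1 encodes MCT1, which moves lactate and pyruvate across the membrane together with a proton. It read 902, 1123, 1033 and 1072 in the light zone and 508, 556, 575 and 563 in the dark zone, again with no overlap, a difference of -0.90 (SE 0.08, limma adjusted p = 1.7e-06). Slc2a1, which encodes GLUT1, the widely expressed glucose transporter, moved less. Its values were 428, 449, 438 and 426 in the light zone, against 312, 319, 386 and 391 in the dark zone. The dark zone arrays were spread more widely than the light zone arrays, yet all of them were lower, and the difference was -0.31 (SE 0.08, limma adjusted p = 0.0081). All 3 probe sets of Slc2a1 above the filter were lower in the dark zone, between -0.27 and -0.37. The second bright probe set of Slc2a3 gave -0.79. Both bright probe sets of Slc2a3 carry a suffix of probes that may also bind related transcripts. Its dimmer probe sets, near the floor, gave -0.02 and 0.08.

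In upper glycolysis, the steps from glucose to triose phosphates, 3 of 7 tested genes (42.9%) passed and all 3 favoured the light zone. Of all tested genes 43.9% passed, 24.8% on the light zone side. Aldoa, the aldolase that splits the phosphorylated sugar, had the largest difference. It read 2007, 1818, 1918 and 1916 in the light zone and 1465, 1483, 1395 and 1436 in the dark zone, without overlap, a difference of -0.41 (SE 0.06, limma adjusted p = 1.2e-04). Its 5 probe sets all carry the suffix of probes that may also bind related transcripts, and all 5 were lower in the dark zone, from -0.32 to -0.72. The hexokinase genes start the pathway by trapping glucose as its phosphate. Hk2, the inducible form, passed narrowly at -0.26 (SE 0.09, limma adjusted p = 0.044), with 109.7, 95.1, 126 and 133 in the light zone and 101, 97.4, 93.8 and 92.4 in the dark zone. Its zones overlapped, and it passed in 1 of the 8 fits that leave out an array each, being lost without any array other than light zone replicate 2, with limma adjusted p of up to 0.125. Hk1, the constitutive form, was at -0.12 (95% interval -0.27 to 0.02) and did not pass.

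Of the 3 genes of phosphofructokinase, the committed step of glycolysis, only Pfkl passed on its brightest probe set. Pfkl, the liver-type subunit, read 76.9, 76.9, 76.7 and 71.7 in the light zone and 67.9, 51.8, 67.3 and 66.1 in the dark zone, a difference of -0.26 (SE 0.09, limma adjusted p = 0.026), which did not pass without light zone replicate 1, 2 or 3 (limma adjusted p = 0.057 to 0.058). Its other bright probe sets gave 0.00 and -0.05 and did not pass. Without dark zone replicate 2 the difference was -0.17. Pfkm, the muscle-type subunit, lay just above the filter, at 34.0, 34.1, 33.4 and 31.0 in the light zone and 35.2, 34.2, 33.6 and 33.1 in the dark zone. That is a difference of 0.04 with a 95% interval of -0.09 to 0.16. Pfkp, the platelet-type subunit, read 939.9, 833, 895 and 771 on its brightest probe set in the light zone and 725, 817, 732 and 732 in the dark zone, a difference of -0.19 that narrowly missed the threshold (limma adjusted p = 0.053). Its probe sets disagreed. A dimmer one was lower in the dark zone by the same kind of fit over all bright probe sets (-0.34, limma adjusted p = 0.0032), while another was higher there, with 47.2, 39.3, 51.5 and 39.3 in the light zone and 82.6, 51.8, 66.2 and 56.0 in the dark zone (0.52, limma adjusted p = 0.011). Tpi1, which interconverts the triose phosphates, was at -0.18 (limma adjusted p = 0.070, 95% interval -0.35 to -0.02). In the fit over all bright probe sets, another probe set of Tpi1 passed at -0.21 (limma adjusted p = 0.026). The remaining one was at -0.15 and did not pass.

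In lower glycolysis 1 of 3 tested genes passed, against 43.9% of all tested genes. Pkm, the pyruvate kinase gene that makes pyruvate in the last step, was the only tested gene of transport, glycolysis and lactate that passed on the dark zone side. It read 269, 203, 259 and 238 in the light zone and 291, 346, 329 and 346 in the dark zone, with no overlap and a difference of 0.44 (SE 0.09, limma adjusted p = 0.0021). Pgk1 and Pgam1, which act between the triose phosphates and pyruvate, did not pass, at 0.05 (95% interval -0.08 to 0.18) and -0.04 (95% interval -0.25 to 0.18). The dark zone arrays of Pgam1 were widely spread, from 1041 to 1487, around light zone values of 1232 to 1379.

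Lactate dehydrogenase is a tetramer of A and B chains, of which the A chain favours lactate formation. Ldha, which encodes it, read 1938, 1849.6, 1882 and 2009.8 in the light zone and 1568, 1552, 1549 and 1566 in the dark zone. The zones did not overlap, and the dark zone arrays lay within a narrow band. The difference was -0.30 (SE 0.05, limma adjusted p = 8.7e-04). Ldhb, which encodes the B chain, read 169, 167, 170.4 and 150.3 in the light zone and 166, 172, 176 and 168 in the dark zone. Its zones overlapped, with a difference of 0.06 with a 95% interval of -0.08 to 0.19.

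**Figure D2:**
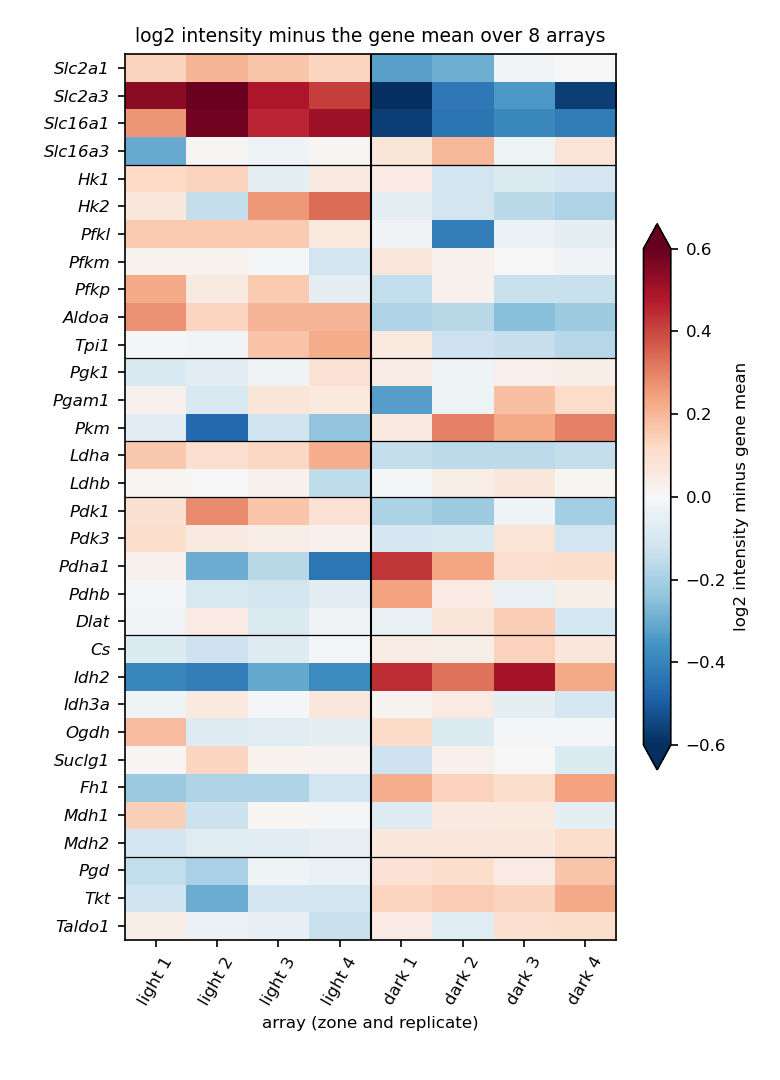
Log2 intensity of the 32 genes with a probe set in each array, minus the mean of that gene over the 8 arrays; red is above and blue below the mean, the vertical line parts light from dark zone arrays and horizontal lines part the steps. Slc2a3, Slc16a1 and Aldoa are red in all 4 light zone arrays, and Idh2, Fh1 and Pkm are above their mean in all 4 dark zone arrays.

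Promoter sequence was examined for the genes that moved together, since hypoxia-inducible factors bind a core spelled ACGTG, or with another first base GCGTG, and since MYC and related factors bind CACGTG. RefSeq start sites (GRCm38.p6) were listed for 34 of the 36 genes, not for Slc2a3 and Idh3a, and the 250 bases before each start were searched on both strands. The longer motif always contains ACGTG. The sequences shown are those of the light zone genes Slc16a1 (chr3:104638414-104638663, plus strand), Slc2a1 (chr4:119108495-119108744, plus strand), Aldoa (chr7:126799179-126799428, minus strand) and Ldha (chr7:46845554-46845803, plus strand), which hold ACGTG, and of Idh2 (chr7:80115351-80115600, minus strand), the gene with the largest difference towards the dark zone, which does not. Aldoa and Ldha have several listed starts, of which 1 that holds the motif is shown. Each runs from 5′ to 3′ on the strand of the gene and ends just before the start, and capitals mark ACGTG (which reads CACGT on the opposite strand) and likewise GCGTG (which reads CACGC on the opposite strand).
Slc16a1: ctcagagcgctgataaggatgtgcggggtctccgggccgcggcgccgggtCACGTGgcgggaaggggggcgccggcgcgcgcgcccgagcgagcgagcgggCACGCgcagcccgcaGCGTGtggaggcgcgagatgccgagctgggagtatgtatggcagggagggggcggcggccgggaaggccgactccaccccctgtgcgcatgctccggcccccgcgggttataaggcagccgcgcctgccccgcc
Slc2a1: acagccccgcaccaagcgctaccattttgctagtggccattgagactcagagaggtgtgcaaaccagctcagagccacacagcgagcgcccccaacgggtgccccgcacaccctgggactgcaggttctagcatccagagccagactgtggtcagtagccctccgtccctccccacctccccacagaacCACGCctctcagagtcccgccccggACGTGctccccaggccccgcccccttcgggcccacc
Aldoa: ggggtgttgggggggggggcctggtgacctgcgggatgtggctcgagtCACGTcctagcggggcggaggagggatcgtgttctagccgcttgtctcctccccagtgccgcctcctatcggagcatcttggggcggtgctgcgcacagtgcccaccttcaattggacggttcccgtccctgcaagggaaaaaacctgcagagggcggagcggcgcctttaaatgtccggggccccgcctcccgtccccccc
Ldha: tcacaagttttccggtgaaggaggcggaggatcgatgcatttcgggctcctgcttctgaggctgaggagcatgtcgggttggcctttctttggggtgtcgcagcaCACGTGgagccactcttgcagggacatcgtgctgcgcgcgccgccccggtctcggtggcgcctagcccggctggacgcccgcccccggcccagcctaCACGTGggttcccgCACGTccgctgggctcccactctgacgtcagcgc
Idh2: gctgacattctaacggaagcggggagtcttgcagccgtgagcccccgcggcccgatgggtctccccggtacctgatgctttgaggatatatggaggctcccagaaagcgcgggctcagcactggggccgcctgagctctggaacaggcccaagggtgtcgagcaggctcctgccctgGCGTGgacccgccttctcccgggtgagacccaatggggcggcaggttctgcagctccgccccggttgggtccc
ACGTG lay before at least 1 listed start in 5 of the 7 light zone genes with a promoter (Slc2a1, Slc16a1, Hk2, Aldoa and Ldha), in 1 of the 7 dark zone genes (Pkm) and in 7 of the 15 that did not pass. The same was true of 27.8% of all tested light zone genes and 24.9% of all tested dark zone genes, and of 24.8% of those that did not pass. Counted per window, 16.6% of all 32851 windows of this length held ACGTG, 28.2% held GCGTG and 6.02% held the longer motif. GCGTG was present in 5 of 7, 6 of 7 and 10 of 15, against 51.4% of tested light zone genes, 53.2% of tested dark zone genes and 48.6% of tested genes that did not pass. CACGTG was present before Slc16a1 and Ldha, before none of the dark zone genes, and before Pfkm and Ogdh among the rest, against 12.2%, 9.53% and 9.55% of tested genes of the same 3 kinds. Genes with several listed starts have more windows in which a motif can occur. These matches describe letters and were not tested.

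The pyruvate dehydrogenase complex turns pyruvate into acetyl-CoA, and its kinases switch it off. Pdha1, the catalytic subunit of its first enzyme, read 861, 688, 754 and 626 in the light zone and 1139, 997, 907 and 911 in the dark zone. All dark zone arrays were above all light zone arrays, and the difference was 0.44 (SE 0.10, limma adjusted p = 0.0046). Its second probe set gave 0.42. Pdhb, the partner subunit, was at 0.14 (limma adjusted p = 0.12) with 1152, 1085, 1074 and 1105 in the light zone and 1369, 1199, 1124 and 1186 in the dark zone. Those zones overlapped. Dlat, the core subunit, was at 0.04 (95% interval -0.11 to 0.18). Pdk1, a kinase that inactivates the complex, moved the opposite way on its brightest probe set. It read 297, 339.9, 313 and 297 in the light zone and 245, 241, 274 and 243 in the dark zone, a difference of -0.32 (SE 0.07, limma adjusted p = 0.0028). The other bright probe sets of Pdk1 did not show it, at 0.06 and 0.05, so its direction depends on the probe set. Pdk3, another kinase of the complex, was at -0.11 (limma adjusted p = 0.17), with 380.4, 367, 363 and 359.6 in the light zone and 329, 332, 374 and 327 in the dark zone, of which 1 dark zone array reached into the light zone range.

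In the TCA cycle, 3 of 8 tested genes (37.5%) favoured the dark zone by limma and the other 5 did not pass. Of all tested genes 43.9% passed, 19.1% on the dark zone side. Idh2, the mitochondrial NADP-dependent isocitrate dehydrogenase, led the whole list towards the dark zone. It read 253, 249, 268 and 254 in the light zone and 451, 415, 469 and 388 in the dark zone. The zones lay far apart, and the difference was 0.75 (SE 0.07, limma adjusted p = 4.0e-06), a 1.68-fold higher mean. A second probe set of Idh2 gave 0.77, but was under the filter level of 27.8 in every light zone array (21.3 to 27.5). It entered the fit only through its dark zone values (34.0 to 46.9) and adds no support. Fh1, fumarase, read 2317, 2379, 2378 and 2496 in the light zone and 3139, 2969, 2908 and 3198 in the dark zone. It did not overlap either, with a difference of 0.35 (SE 0.06, limma adjusted p = 4.4e-04). Mdh2, the mitochondrial malate dehydrogenase, read 4694, 4837, 4861 and 4906 in the light zone and 5315, 5333, 5317 and 5469.8 in the dark zone. It passed at 0.15 (SE 0.05, limma adjusted p = 0.035), but was lost in 7 of the 8 fits that leave out an array each (the fit without dark zone replicate 1 kept it), and its second probe set was at 0.03. Cs, citrate synthase, had dark zone arrays that were all higher, 3069.6 to 3300.5 against 2746 to 2979.8, yet narrowly missed the threshold at 0.14 (limma adjusted p = 0.057), and its other bright probe sets gave -0.09 and -0.05. Idh3a, Ogdh, Suclg1 and the cytosolic Mdh1 lay between -0.09 and 0.01 and did not pass, although 1 dimmer probe set of Mdh1 did (-0.27, limma adjusted p = 0.017). Idh3a, a subunit of the NAD-dependent isocitrate dehydrogenase, had a 95% interval of -0.17 to 0.08. Of the other subunits of that enzyme, Idh3b was at 0.02 and did not pass, and Idh3g passed on the dark zone side at 0.25 (SE 0.07, limma adjusted p = 0.014).

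In the pentose phosphate pathway 2 of 3 tested genes favoured the dark zone, as did 19.1% of all tested genes. Tkt, transketolase of the non-oxidative branch, read 5283, 4656, 5283 and 5307 in the light zone and 6261, 6369.6, 6294 and 6710.4 in the dark zone. There was no overlap, and the difference was 0.32 (SE 0.06, limma adjusted p = 0.0014), with 0.39 on a second probe set and -0.05 on a dim one. Pgd, phosphogluconate dehydrogenase, the later NADPH-forming enzyme of the oxidative branch, read 1836, 1781, 2001 and 1975 in the light zone and 2159.5, 2188, 2104 and 2285 in the dark zone. The difference was 0.20 (SE 0.06, limma adjusted p = 0.018), and 0.17 without light zone replicate 2, where it did not pass (limma adjusted p = 0.054). Other bright probe sets of Pgd gave 0.17, 0.27 and 0.13, of which the last did not pass (limma adjusted p = 0.39). Taldo1, transaldolase, was at 0.09 (95% interval -0.05 to 0.23).

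**Figure D3:**
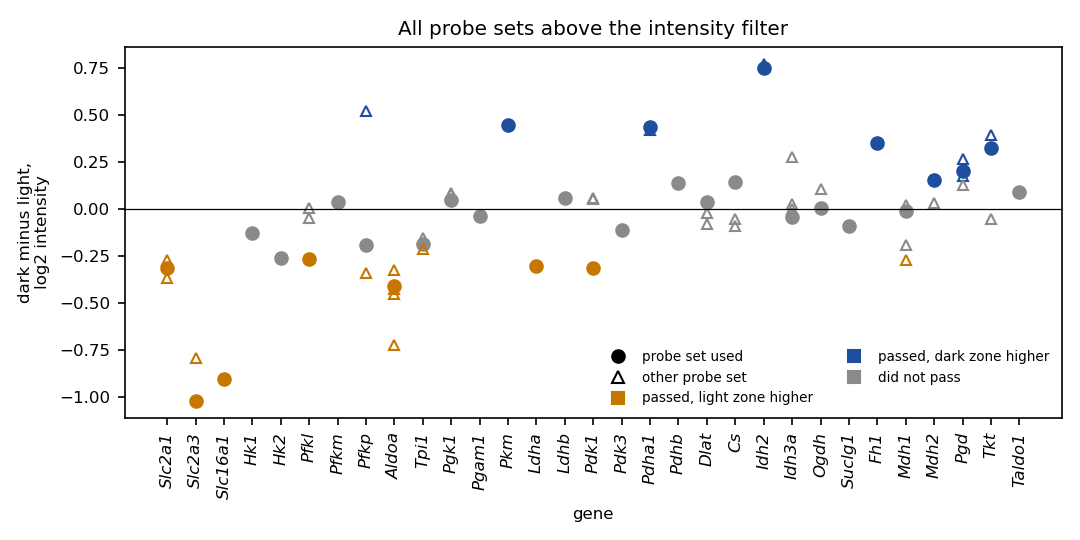
Difference in log2 intensity, dark zone minus light zone, for each of the 67 probe sets above the filter, by gene; filled circles are the brightest probe set of a gene, open triangles the others, and colours show the limma call over all bright probe sets. The probe sets of Slc2a1, Aldoa and Pdha1 lie on the same side within each gene, while those of Pfkp lie between -0.34 and 0.52. Hk2 does not pass in this wider fit.

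The zones' arrays did not overlap for 7 members with the light zone higher and 8 with the dark zone higher, where 23.2% and 18.1% of all tested genes were of these kinds. Of the 15 members that passed, 11 passed in every fit that left out 1 array: Slc2a1, Slc2a3, Slc16a1, Aldoa, Pkm, Ldha, Pdk1, Pdha1, Idh2, Fh1 and Tkt. Of 12 macrophage and monocyte markers, 5 were above the filter and moved in both directions. The lysozyme gene Lyz2 passed on the dark zone side (2.98, SE 0.46, limma adjusted p = 2.4e-04), at 128, 461, 466 and 824 against 37.7 to 89.1 in the light zone. Csf1r passed on the same side at 0.40, Cd68 on the light zone side at -0.40, and Mpeg1 (-0.18) and Adgre1 (0.07) did not pass. Itgam, Cd14, C1qa, C1qb, C1qc, Fcgr1 and Mertk were below the filter, and the summed intensity of the 12 genes was 451 to 545 in the light zone and 500.5 to 1314 in the dark zone. With any single dark zone array left out, Idh2 lay between 0.71 and 0.80, Fh1 between 0.33 and 0.37 and Tkt between 0.30 and 0.33. Each of these fits keeps dark zone arrays with raised Lyz2, and the part of macrophage RNA in the differences was not tested. All 9 tested genes of cell division (G2 and M) favoured the dark zone, by 0.53 to 1.96, Kif20a and Nek2 the most. Of all tested genes, 19.1% favoured that zone. The part of cell division in the metabolic differences was not tested. Of 6 follicular dendritic and stromal markers, Fcer2a (-2.06) and Cr2 (-0.98), which B cells also express, passed on the light zone side, Cxcl13 and Clu did not pass, and Pdpn and Madcam1 were below the filter; their sum was 4202 to 4550.2 in the light zone and 1497 to 1833 in the dark zone. Among plasma cell markers Prdm1 was at -1.37 and Jchain at 0.15, both passing, and Sdc1 and Xbp1 did not pass. Prdm1 was under the filter level of 27.8 in every dark zone array (14.6 to 20.5). It entered the test only through its light zone values (37.1 to 51.5). Among germinal centre markers Gcsam passed at 1.48 and Fas, part of the gate, at -0.23, while Bcl6 and Mef2b did not pass. The part of these markers in the metabolic differences was not tested. Of T cell markers 2 of 7 were above the filter and neither passed, and of 4 neutrophil and 2 erythroid markers with a probe set none was above it. Of 4 markers of B cells in general none passed (limma), and their summed intensity was 15980.3 to 16728 in the light zone and 15460.4 to 16077 in the dark zone.

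Related genes were compared within each array, by taking the log2 difference between the 2 genes of a pair and testing whether it differed between zones (two-sided exact permutation test over 70 arrangements of the arrays, smallest p = 0.0286). Of 9 pairs that could be tested, 6 reached that smallest p, which gives an adjusted p of 0.043 for each of the 6 and only because 6 reached it. Slc2a1 minus Slc2a3 was 0.04 to 0.16 in the light zone and 0.58 to 1.01 in the dark zone, so the log2 ratio of these signals shifted by 0.70; signals of different probe sets do not show which mRNA was more abundant. Ldha minus Ldhb was 3.47 to 3.74 in the light zone and 3.14 to 3.24 in the dark zone, a shift of -0.36. Pdha1 minus Pdhb moved by 0.30, Pfkm minus Pfkp by 0.23, Pfkl minus Pfkm by -0.30 and Pdk1 minus Pdk3 by -0.20, the last with a sign that turned with other probe sets. Other bright probe sets gave zone differences of 0.00 and -0.05 for Pfkl and of -0.34 and 0.52 for Pfkp. Pfkm minus Pfkp and Pfkl minus Pfkm therefore depend on the probe set as well. Hk1 against Hk2 (0.13, exact permutation p = 0.34), Pfkl against Pfkp (-0.07, p = 0.83) and Mdh1 against Mdh2 (-0.16, p = 0.086) gave no difference that passed. With all probe sets of each gene averaged, none of 8 pairs passed by exact permutation; Slc2a1 against Slc2a3 was then 0.12, an average that includes probe sets of Slc2a3 near the floor.

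**Figure D4:**
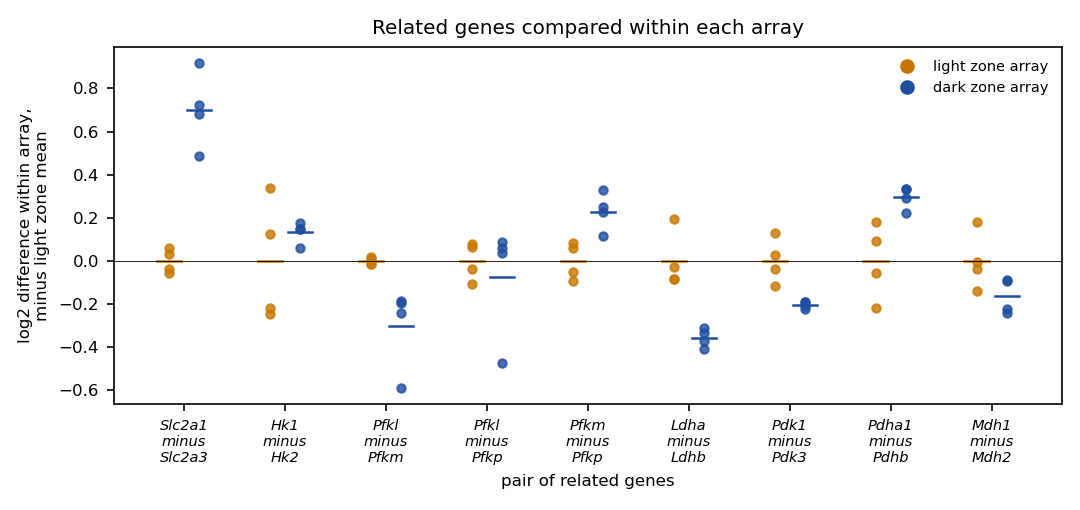
Within-array log2 difference between the genes of each of 9 pairs, with the light zone mean of the pair set to 0; points are arrays and horizontal bars are zone means. The dark zone arrays of Slc2a1 minus Slc2a3 lie above all light zone arrays, and those of Ldha minus Ldhb and of Pfkl minus Pfkm lie below.

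Further genes of the same pathways were read beside the members. They came from lists of textbook pathway members chosen with earlier results of these data known. Of 18 tested genes of glycolysis and lactate, 7 favoured the light zone and 2 the dark zone (limma), with a median of -0.06. These shares were 38.9% and 11.1%, against 24.8% and 19.1% of all tested genes. Aldoc, another aldolase, had 184.6 to 244 in the light zone and 51.5 to 68.0 in the dark zone, a difference of -1.81 (SE 0.10, limma adjusted p = 5.3e-08). Adpgk, the ADP-dependent glucokinase, was at -1.26, Pfkfb3, which makes the allosteric activator of phosphofructokinase, at -0.91, the enolase gene Eno3 at -0.78 and the transporter gene Slc2a6 at -0.70, all higher in the light zone. Bpgm, which diverts an intermediate of lower glycolysis into bisphosphoglycerate, was the largest difference of that list towards the dark zone, with 153 to 168 in the light zone and 339 to 362 in the dark zone (1.12, SE 0.06, limma adjusted p = 3.6e-08). Bpgm thus lay on the same side as Pkm, whereas the enolase gene Eno3 lay on the light zone side. The glucose transporter gene Slc2a8 also passed on the dark zone side, at 0.21 (limma adjusted p = 0.025).

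Of 25 further tested genes of pyruvate handling and the TCA cycle, 13 favoured the dark zone and 5 the light zone (limma). Their median was 0.23. These shares were 52% and 20%, against 19.1% and 24.8% of all tested genes. All 4 succinate dehydrogenase subunit genes, which feed electrons from the cycle into the respiratory chain, passed on the dark zone side: Sdha at 0.39, Sdhb at 0.40, Sdhc at 0.23 and Sdhd at 0.31. Pck2, the mitochondrial enzyme that makes phosphoenolpyruvate, was at 0.49. Pdp1, a phosphatase gene of pyruvate dehydrogenase, passed on the same side at 0.25 (limma adjusted p = 0.038), with overlapping zones. In the light zone direction, Aco1, the cytosolic aconitase that also acts as an iron sensor, was at -0.64, Mpc1, a subunit of the mitochondrial pyruvate carrier, at -0.46 and Pdp2, a phosphatase that reactivates pyruvate dehydrogenase, at -0.43. Of 8 further pentose phosphate genes 3 favoured each zone (limma), or 37.5%, against 24.8% (light zone) and 19.1% (dark zone) of all tested genes. Tktl1, a transketolase-like gene near the filter, was at 0.95, the phosphoribosyl pyrophosphate synthetase gene Prps2 at 0.66 and the ribose phosphate isomerase gene Rpia at 0.48, while H6pd was at -0.40, Pgls, the lactonase of the oxidative branch, at -0.35 and the ribokinase gene Rbks at -0.30. The oxidative branch went both ways, with Pgd higher in the dark zone and Pgls in the light zone.

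**Figure D5:**
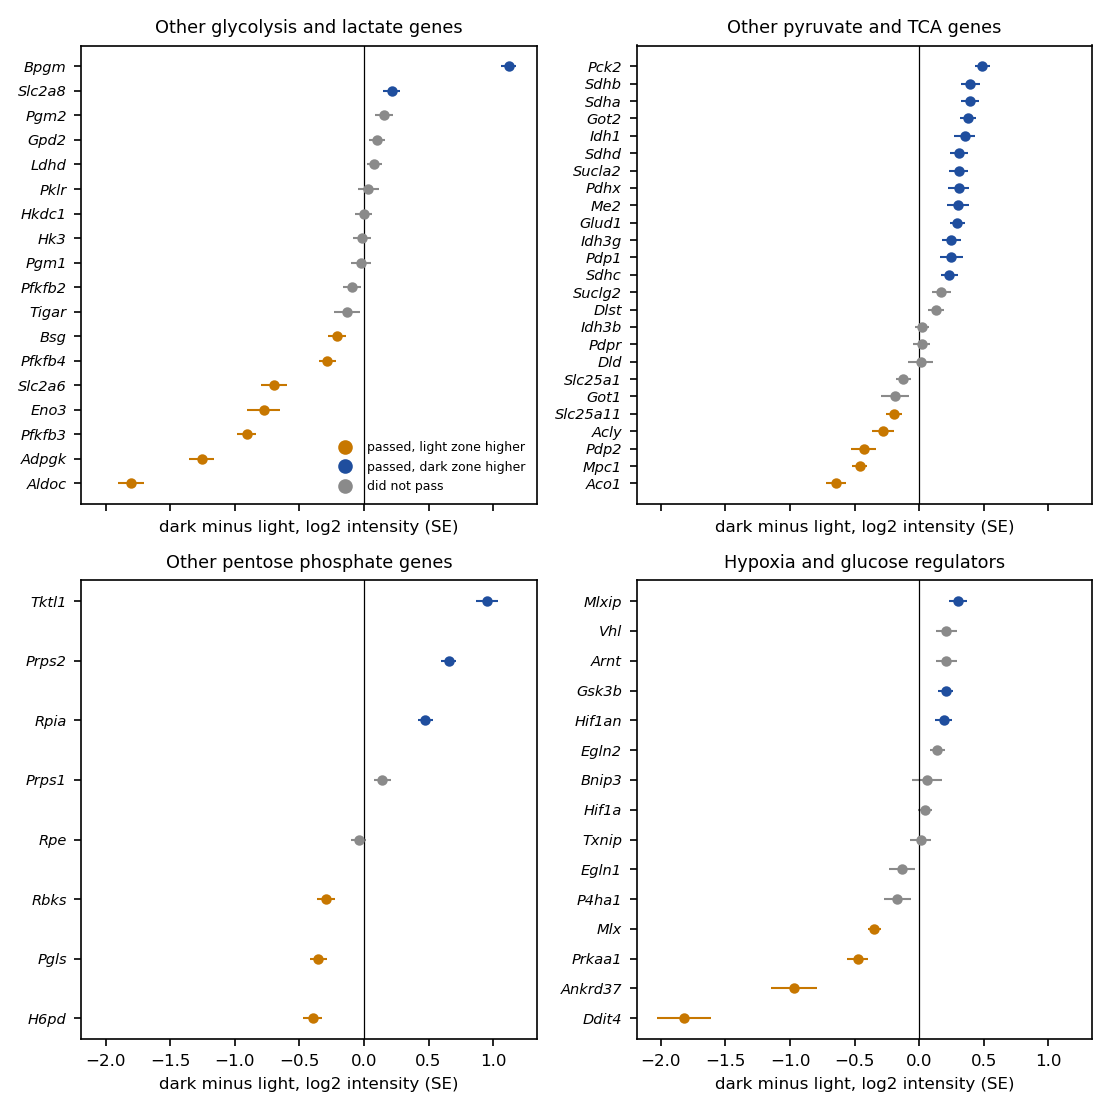
Dark zone minus light zone difference in log2 intensity, with SE, of the tested genes of 3 further pathway lists and of a list of hypoxia and glucose regulators; colours show the limma call. Aldoc and Adpgk lie farthest to the left among the glycolysis genes, Bpgm farthest to the right, and 13 of 25 pyruvate and TCA genes passed on the right.

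Regulators of glucose use and of the response to low oxygen were mixed. Of 15 tested, 4 favoured the light zone and 3 the dark zone (limma). These shares, 26.7% and 20%, were close to the 24.8% and 19.1% of all tested genes. Ddit4, a stress-induced inhibitor of mTORC1, was at -1.82 (SE 0.21), with light zone arrays spread from 148 to 335 and dark zone arrays from 56.0 to 79.5. Ankrd37, a target of hypoxia-inducible factors, was at -0.97 (SE 0.18), with 158 to 280.1 and 91.0 to 153. Prkaa1, a catalytic subunit of AMP-activated kinase, was at -0.48, and Mlx, a partner of glucose-sensing factors, at -0.35, while Mlxip, 1 of those factors, was at 0.30. Vhl, which marks the oxygen-regulated factor for breakdown, was at 0.21 and narrowly missed the threshold (limma adjusted p = 0.056). The mRNA of Hif1a, the oxygen-regulated subunit, was bright and did not pass, at 0.05 (SE 0.06), and that of Txnip, a restrainer of glucose uptake, was at 0.01. The hypoxia targets Vegfa, Car9, Egln3 and P4ha2 were below the filter. Bnip3 (0.06), P4ha1 (-0.17) and Egln1 (-0.13) of the same list were tested and did not pass. Hif1an and Gsk3b passed on the dark zone side, at 0.19 and 0.20.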

How the data were processed

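The authors deposited RMA intensity values on a linear scale, with RMA named in the submitters' processing notes; its version is not given in the sources used here. RMA corrects background, quantile-normalizes arrays and summarises probes, so these values cannot show a shift in RNA content, and differences of dim genes are understated. The design had assumed log2 values; the log2 of 45037 probe sets was therefore taken first, with no pseudocount. Names came from the platform annotation: 34945 (77.6%) carry 1 symbol, 932 several and 9160 none, and no symbol changed when gene identifiers were matched to the reference table. Each gene was represented by its brightest single-symbol probe set over the 8 arrays and entered the test when its mean was at or above the 50th percentile over all probe sets.

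Zones were compared with limma 3.58.1 in R 4.3.3 (lmFit, eBayes, two-sided), over all tested genes and with no covariate. Array medians lay between 27.3 and 28.1, arrays of a zone correlated at 0.995 to 0.997 and of different zones at 0.974 to 0.980, and the number of arrays limits precision. In a test on simulated data made from the means and variances of these 10547 genes, 67, 67 and 66 genes were changed by 0.25, 0.5 and 1. The fit of dark against light zone recovered 25.4%, 88.1% and 100% of them. In the data 43.9% of tested genes passed, far more than were changed in the simulation, so these shares need not hold for the data. Pairs used exact permutation. Members, lists and pairs were chosen with earlier results of these data known. Every member is named. Values per array are given for members that passed with a difference of at least 0.5 and for members of pairs that passed. The same holds for members whose probe sets passed in opposite directions and, chosen after values were seen, for the other members that passed. Other lists are represented by their members with the largest differences. Added after their values were seen were Txnip, Hif1a, Me2, Bnip3, P4ha1, Egln1, Hif1an, Gsk3b, Slc2a8, Pdp1 and the subunits of succinate dehydrogenase. Alternatives varied the filter, probe set, normalization, variance model, array weights, replicate block, threshold and arrays. Figures used matplotlib 3.10.9 in Python 3.11.15.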

Additional observations from a re-analysis of the deposited data

Results flagged for a closer look

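In 11 of 64 sets of 4 arrays (32 genes in 2 zones), 1 array stood far from the other 3 by Dixon's test at the 95% level, where chance marks about 1 set in 20. Among light zone arrays, replicate 1 was low for Slc16a3 (10.4 against 12.5 to 12.9, near the floor) and high for Ogdh (397 against 331 to 336). Light zone replicate 2 was low for Tkt (4656 against 5283 to 5307) and high for Suclg1 (1985 against 1821 to 1838). Light zone replicate 4 was low for Pfkl (71.7 against 76.7 to 76.9) and Ldhb (150.3 against 167 to 170.4). Among dark zone arrays, replicate 2 was low for Pfkl (51.8 against 66.1 to 67.9) and high for Pfkp (817 against 725 to 732). Dark zone replicate 3 was high for Pdk1 (274 against 241 to 245) and Pdk3 (374 against 327 to 332), and replicate 4 was high for Mdh2 (5469.8 against 5315 to 5333).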

How the results depend on the processing

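Members favouring the light zone numbered 8 and those favouring the dark zone 7; over the fits that leave out 1 array each they numbered 6 to 8 and 5 to 7, of all tested genes 4092 to 4340 passed (4629 with all arrays), and of the other pathway genes 30 to 32 (33 with all arrays). Across all other alternatives, these 4 counts stayed within 1.5 times, except that only probe sets without a suffix left 20 testable members, with 4 on each side: of the lost calls, Slc2a3, Aldoa, Ldha, Fh1, Mdh2 and Pgd were no longer tested and Pdk1 was read on another probe set. Of 542 values of single members under the alternatives, 494 kept their side of the threshold, 31 lost the call, 16 gained it and 1 reversed. Of the 494, 15 changed sign, in Pgam1, Dlat, Cs, Idh3a, Ogdh and Mdh1, none of which passed in the main comparison or under the alternative concerned. The reversed one was Pdk1, at 0.058 with its brightest probe set without a suffix. Me2, at 0.30, was at -0.073 with probe sets averaged. Of pairs, 6 passed; leaving out arrays gave 0 to 6 and averaged probe sets 0, and since 9 pairs need 6 at the smallest exact p, a count of 0 says little about stability. Pdk1 minus Pdk3 reversed to 0.046 with averaged probe sets and 0.17 with probe sets without a suffix. The cause of these changes was not tested. With arrays centred on their median, light zone genes made up 62.1% of all calls and the median of all genes was -0.03. By the rule used the replicate numbers did not pair the arrays, since 1 same-numbered pair was under 0.1. Same-numbered arrays correlated at 0.06 to 0.24 in their deviations. For replicates 1, 2 and 4 the same number gave the highest correlation (0.126, 0.189 and 0.243, against at most 0.091). Dark zone replicate 3 correlated better with another light zone array (0.091) than with its own number (0.060). Whether samples were matched by number cannot be settled from these values. With the replicate block 7 members favoured the light zone and 6 the dark zone, Hk2 and Mdh2 being lost (limma adjusted p = 0.051 and 0.050), and 34 of the other pathway genes passed. Tpi1, Pfkp and Cs passed under some alternatives, each in the direction reported.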
